A study of Homo sapiens with 11 samples.

Results

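The constant distal acetylated regions described here carried H3K27ac in all 4 libraries of both CFPAC1 clones, lay away from the ends of protein-coding genes and overlapped no MYRF or FOS peak. H3K27ac, acetylation of lysine 27 on histone H3, was mapped by ChIP-seq in CFPAC1, a human pancreatic ductal adenocarcinoma cell line. Overlapping peaks of the 4 H3K27ac lists were merged into 134465 regions, of which 54063 held a peak of every list and are called constant. Of these, 27999 were under 6000 bp long and more than 10 kb from either end of every protein-coding gene (GRCh38). Those overlapped by no MYRF peak and no FOS peak numbered 13567, which was 48.5% of the constant distal regions (Wilson 95% interval 47.9 to 49.0, counting error only), 25.1% of the constant regions and 10.1% of all merged regions. The other constant distal regions were 11324 with a FOS peak and no MYRF peak (40.4%) and 3108 with a MYRF peak (11.1%).

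The H3K27ac libraries came from a clonal CFPAC1 line infected with lentiCRIPSv2 (spelled as in the labels) with Cas9 plus a MYRF guide (the MYRF knockout clone, 2 libraries) and from a clonal CFPAC1 line infected with the same plasmid, for which no guide is named (the control clone, 2 libraries). FOS was mapped in a clonal line labelled like the control clone (2 libraries). MYRF was mapped with an antibody made by the submitters in original CFPAC1 cells and in original HPAF2 cells, another pancreatic ductal adenocarcinoma line (2 libraries each). Each genotype is labelled as a clonal line, without saying whether both of its libraries came from the same clone, so the effect of the knockout and a difference between clones cannot be told apart. Nothing in the labels says that replicates came from separate cultures, so the spread between them may be technical. All 5 groups grew in medium with serum. The lists hold 107586 and 110498 H3K27ac peaks in the knockout clone, 116466 and 109352 in the control clone, 29087 and 36349 FOS peaks, and 3702 to 4743 MYRF peaks. Read depths were not given in the sources used here. A peak lay within 1 kb of an end of 10 of 10 ductal and epithelial marker genes in both knockout lists and of 9 of 10 in both control lists, where CFTR lacked one, while 1 of 5 acinar markers was marked in both knockout lists and 1 or 2 of 5 in the control lists. Fibroblast markers were marked in 1 and 3 of 5 in the knockout lists and 1 of 5 in both control lists, endothelial markers in 2 and 1 of 4 against 1 and 0 of 4, and immune markers (CD3E, CD14, LYZ) in 3 of 5 in all 4 lists. The MYRF gene itself carried 5 and 8 H3K27ac peaks in the knockout lists and 2 and 12 in the control lists, so these lists do not test the knockout.

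H3K27ac is placed by the acetyltransferases p300 and CBP on nucleosomes beside active promoters and enhancers. FOS dimerises with JUN proteins to form AP-1, which binds the motif TGANTCA and is bound at many distal enhancers of epithelial cancer cells. MYRF sits in the membrane of the endoplasmic reticulum until it cleaves itself, after which the freed part enters the nucleus and binds DNA. A constant region without a FOS or MYRF peak is therefore one that keeps the mark in both clones with neither factor called there.

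The distance rule used the outer ends of genes, so it let through promoters that start inside a longer gene and promoters of non-coding RNAs. The 300-base promoter windows of RefSeq (GRCh38.p14, 250 bases before to 50 after a transcript start, several per gene) show this directly. The first 3 of the following sequences lie wholly inside regions without FOS or MYRF that were among the most strongly acetylated, and CG dinucleotides are in capitals. VDAC1 encodes the main channel of the mitochondrial outer membrane (window chr5:134004926-134005225, minus strand). CANX encodes calnexin, a lectin chaperone of the endoplasmic reticulum (chr5:179698177-179698476, plus strand). LOC100130992 is a long non-coding RNA (chr10:22251822-22252121, plus strand). In the last 2 sequences the capitals mark the AP-1 letters TGANTCA. SVIL-AS1, a long non-coding RNA antisense to SVIL, has its window inside a region without a FOS peak in spite of these letters (chr10:29409284-29409583, plus strand). LOC105374745, a long non-coding RNA, has its window inside a FOS-overlapped region and is shown for contrast (chr5:42950639-42950938, plus strand).
VDAC1: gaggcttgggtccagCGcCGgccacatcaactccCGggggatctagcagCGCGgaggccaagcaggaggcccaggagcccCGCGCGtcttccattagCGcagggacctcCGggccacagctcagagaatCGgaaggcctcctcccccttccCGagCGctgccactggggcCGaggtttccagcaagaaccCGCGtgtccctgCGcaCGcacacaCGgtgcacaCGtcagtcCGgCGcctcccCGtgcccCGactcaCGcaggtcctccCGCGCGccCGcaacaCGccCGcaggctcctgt
CANX: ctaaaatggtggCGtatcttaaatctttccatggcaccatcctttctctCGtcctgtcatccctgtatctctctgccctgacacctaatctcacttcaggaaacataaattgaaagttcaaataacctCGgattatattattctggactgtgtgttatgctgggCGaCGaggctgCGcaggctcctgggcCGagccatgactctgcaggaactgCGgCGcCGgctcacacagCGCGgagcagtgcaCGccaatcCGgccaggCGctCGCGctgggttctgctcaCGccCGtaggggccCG
LOC100130992: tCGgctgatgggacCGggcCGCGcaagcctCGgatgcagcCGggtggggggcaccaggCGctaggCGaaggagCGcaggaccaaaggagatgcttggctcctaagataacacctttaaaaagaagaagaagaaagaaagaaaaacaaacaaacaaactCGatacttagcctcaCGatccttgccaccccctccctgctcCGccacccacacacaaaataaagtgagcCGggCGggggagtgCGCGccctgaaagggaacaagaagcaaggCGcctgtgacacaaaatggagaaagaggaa
SVIL-AS1: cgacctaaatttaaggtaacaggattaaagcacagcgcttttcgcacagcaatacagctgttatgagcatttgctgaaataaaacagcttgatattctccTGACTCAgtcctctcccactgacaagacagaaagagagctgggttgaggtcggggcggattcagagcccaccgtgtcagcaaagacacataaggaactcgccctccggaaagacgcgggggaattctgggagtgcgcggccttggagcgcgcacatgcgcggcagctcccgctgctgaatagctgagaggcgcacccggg
LOC105374745: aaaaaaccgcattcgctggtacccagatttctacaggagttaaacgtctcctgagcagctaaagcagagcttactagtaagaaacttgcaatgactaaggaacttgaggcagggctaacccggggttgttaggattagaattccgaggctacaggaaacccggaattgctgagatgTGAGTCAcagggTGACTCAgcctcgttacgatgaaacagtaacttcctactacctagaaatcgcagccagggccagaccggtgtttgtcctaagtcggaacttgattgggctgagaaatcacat
The VDAC1 window held 31 CG dinucleotides at 70.7% GC, the CANX window 20 at 55.7% and the LOC100130992 window 17 at 55.7%. The SVIL-AS1 window held 1 copy of TGANTCA and the LOC105374745 window 2.

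The strength of a region was read as the authors' fold enrichment of its strongest peak in each list, placed as a percentile among all peaks of that list, because folds of different libraries are not on a common scale. Regions without FOS or MYRF were of middling strength among all peaks of a list, but below the constant regions as a whole. All constant regions, which include these, had median percentiles of 71.1 and 72.1 in the knockout lists and 73.7 and 72.1 in the control lists. Without FOS or MYRF the median percentile was 54.0 and 57.7 in the knockout lists and 59.7 and 58.1 in the control lists. The median folds were 5.84 and 5.99 against 6.23 and 6.20. The median percentiles averaged 55.9 ± 2.58 in the knockout clone and 58.9 ± 1.14 in the control clone (SD, n = 2 each), a difference no larger than the gap between the knockout replicates. FOS-overlapped regions stood higher in every list, at 67.2 and 72.4 in the knockout lists and 74.6 and 69.0 in the control lists, and MYRF-overlapped regions higher again, at 80.2 and 84.3 against 85.9 and 82.4. Regions without FOS or MYRF were thus 13.2 and 14.7 percentile points below FOS-overlapped ones in the knockout lists and 14.9 and 10.9 points below them in the control lists. The rule used these lists, so these differences are descriptions and carry no test.

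**Figure D1:**
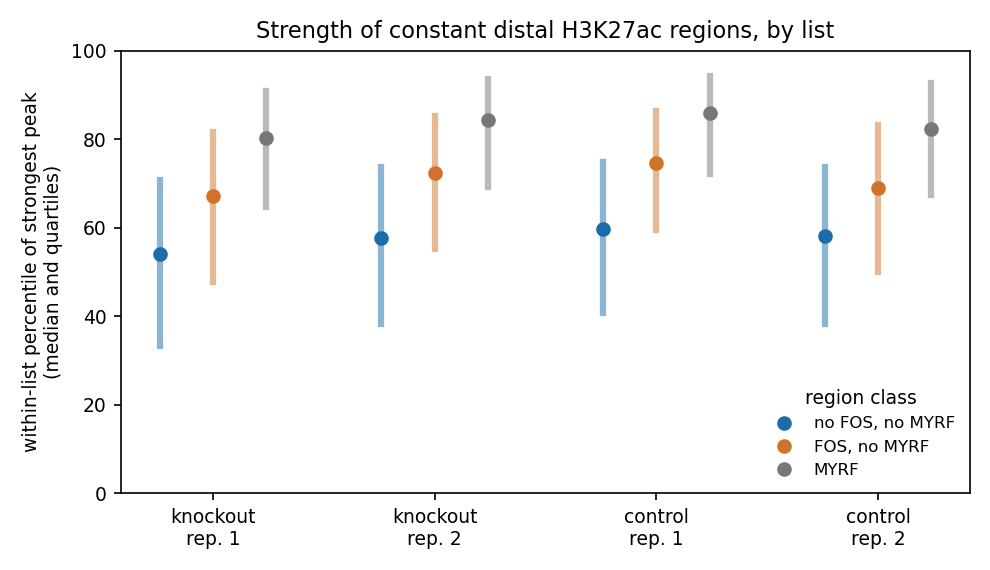
Within-list percentile of the strongest H3K27ac peak (y axis, 0 to 100) for the 3 classes of constant distal region in each knockout and control list; dots are medians and bars run between the quartiles. The regions without FOS or MYRF have the lowest median in all 4 lists, between 54.0 and 59.7.

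Length moved with this difference. Regions without FOS or MYRF had a median length of 1072 bp (quartiles 732 and 1623 bp), against 1640 bp (1039 and 2564 bp) for FOS-overlapped regions. A single peak in every list made up 48.3% of the regions without FOS or MYRF and 33.4% of the FOS-overlapped ones. Among regions without MYRF, 27.3% of those under 750 bp were overlapped by a FOS peak, and the share climbed through every length class to 75.5% of those from 3000 to 6000 bp. Within a length class the gap in median percentile was smaller than the pooled difference of -14.6 points, which was -4.48 when only peaks with a -log10 q of at least 10 were kept. As regions without FOS or MYRF minus FOS-overlapped regions, it was -3.56 points under 750 bp, -5.42 points from 1000 to 1500 bp and -5.79 points from 3000 to 6000 bp, with the regions without FOS or MYRF lower in all 6 classes. The part of length in the pooled gap was not tested beyond these values.

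**Figure D2:**
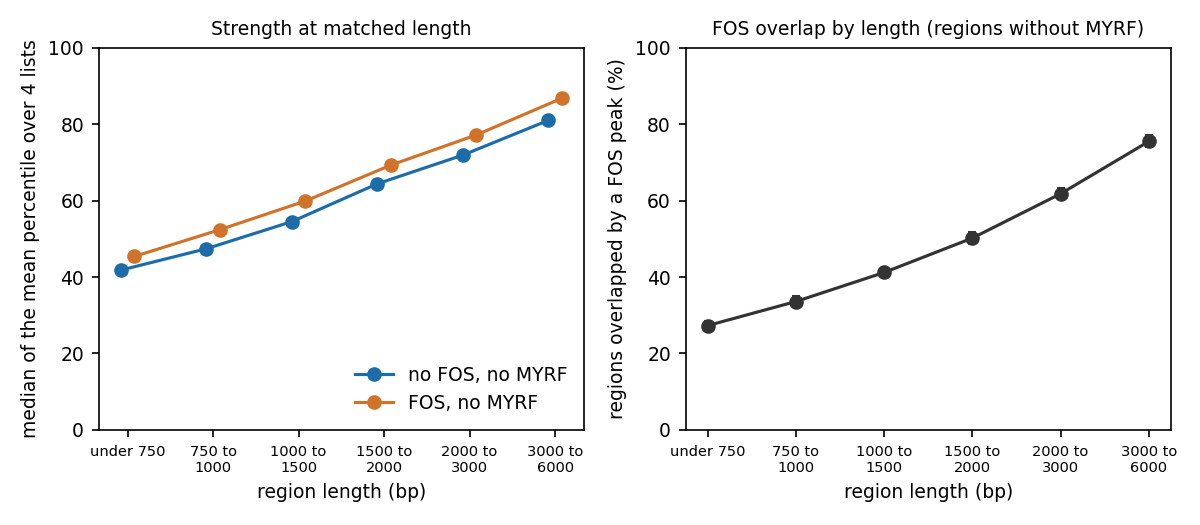
Left, median of the mean percentile over the 4 lists (y axis) by region length (x axis, bp) for constant distal regions without FOS or MYRF and with FOS only. Right, share of the same regions overlapped by a FOS peak (y axis, %) with Wilson 95% intervals. The 2 curves on the left differ by -3.56 to -5.79 points, and FOS overlap runs between 27.3% and 75.5%.

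The median distance to the nearest FOS peak was 6133 bp with the lists as deposited and 18828 bp when every list was limited to peaks with a -log10 q of at least 10. As deposited, 45.6% of the regions (44.7 to 46.4) had one within 5 kb. At the other extreme 505 regions (3.72%) were more than 100 kb from any FOS peak. The median percentiles of these remote regions were 60.3 and 61.5 in the knockout lists and 62.4 and 59.6 in the control lists, above the medians of the whole set in all 4 lists. The weakest distance class was 500 to 2000 bp from a FOS peak, at 49.6 and 51.8 in the knockout lists and 55.9 and 54.0 in the control lists. The remote regions also lay inside protein-coding genes less often, at 36.8% against 50.8% of the regions within 500 bp of a FOS peak.

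Position relative to genes was the same with and without FOS in one respect and different in another. The share within protein-coding gene spans was 50.7% in both classes (49.9 to 51.6 without FOS or MYRF, 49.8 to 51.7 with FOS). The median distance to the nearest protein-coding gene end was 44812 bp (quartiles 22012 and 99090 bp) without FOS or MYRF and 52251 bp with FOS. An annotated promoter window was overlapped by 903 regions without FOS or MYRF, or 6.66% (6.25 to 7.09), against 508 FOS-overlapped regions, or 4.49% (4.12 to 4.88). For windows of protein-coding genes the shares were 3.84% (3.53 to 4.18) and 1.78% (1.56 to 2.04), and for windows of long non-coding RNAs 3.36% (3.07 to 3.68) and 2.98% (2.69 to 3.31). MYRF-overlapped regions had a window in 6.44% (5.62 to 7.35), an interval that overlapped that of regions without FOS or MYRF. Their share was lower for protein-coding windows, at 1.93%, and higher for long non-coding RNA windows, at 4.67% (3.98 to 5.46). In every length class the regions without FOS or MYRF had a larger share with a window than FOS-overlapped ones, 4.58% against 1.79% under 750 bp and 14.5% against 8.75% from 3000 to 6000 bp. The intervals cover counting error over regions of a genome, which are not replicates.

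The promoter windows were concentrated among the strongest regions. When the regions were ranked by joint percentile, the lowest of the 4 within-list percentiles, 23.8% of the top decile (323 of 1357, interval 21.6 to 26.1) overlapped a promoter window, against 2.29% of the bottom decile. In FOS-overlapped regions ranked the same way the shares were 11.9% and 1.41%. Length moved with these deciles. Its median was 1976 bp in the top and 793 bp in the bottom decile without FOS or MYRF, and 3258 and 906 bp with FOS. The part of length in these shares was not tested. The 521 regions with a protein-coding window had median percentiles of 78.1 and 76.9 in the knockout lists and 78.2 and 79.1 in the control lists. The 12664 regions with no window stood at 52.4 and 56.4 in the knockout lists and 58.8 and 57.0 in the control lists. By annotation the label distal held for most of the set, while a sizeable minority of its strongest regions overlapped an annotated promoter window.

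**Figure D3:**
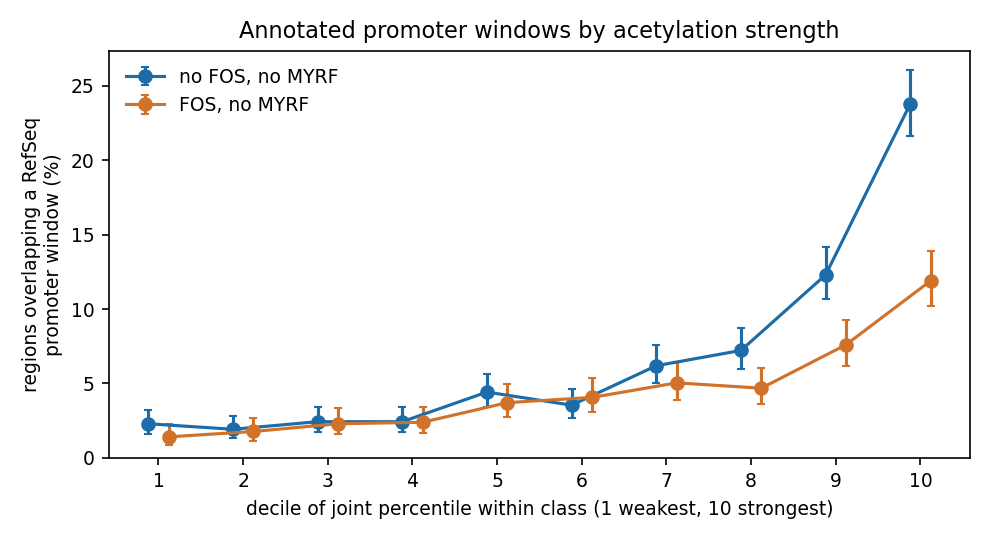
Share of regions that overlap a RefSeq promoter window (y axis, %) by decile of joint percentile within each class (x axis), with Wilson 95% intervals. The share in regions without FOS or MYRF is 23.8% in the strongest decile and below 5% in the 4 weakest, against 11.9% in the strongest decile of FOS-overlapped regions.

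The 12 regions with the highest joint percentile had folds from 19.2 to 39.7, and 8 of them lay inside a protein-coding gene. A window of the gene they lay in was overlapped by 5 of them, a long non-coding RNA window by 2, and the end of a long non-coding RNA by 1 more. The region inside VDAC1 (chr5:134004802-134006451), which holds the window printed above, had folds of 26.8 and 25.1 in the knockout lists and 22.7 and 24.3 in the control lists. The others with a coding window lay inside CCNJL, a cyclin-like gene; ELF2, an ETS-family transcription factor; ADAR, an adenosine deaminase that edits RNA; and UBE2D2, a ubiquitin-conjugating enzyme. The ADAR region (chr1:154606964-154610064) had folds of 24.6 and 19.8 in the knockout lists and 24.6 and 27.5 in the control lists. Both knockout percentiles were above both control ones at VDAC1 and below them at ADAR.

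Promoter windows of long non-coding RNAs were met by 2 of the others. The region over the start of LOC100130992, 33189 bp from EBLN1, had folds of 21.3 and 19.2 in the knockout lists and 22.6 and 23.2 in the control lists. The region that met the edge of a LINC01166 window, 21030 bp from the cilia gene CFAP46, had 23.9 and 26.3 in the knockout lists and 19.7 and 28.8 in the control lists. The region over one end of LINC02901 (chr6:158909647-158913360), 49620 bp from the radial spoke gene RSPH3, had 26.6 and 28.3 in the knockout lists and 21.7 and 37.5 in the control lists. All 3 lay outside protein-coding gene spans.

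Of the 12, 4 met neither a promoter window nor a non-coding gene end, and 3 of these are described. The strongest of all lay 13661 bp from LRRC23, which encodes a radial spoke protein of sperm flagella, at chr12:6890293-6891161. It had folds of 30.5 and 26.9 in the knockout lists and 30.5 and 26.9 in the control lists. A non-coding gene ended within 1 kb of it, and the nearest FOS peak was 9433 bp away. A region inside WDR45B, an autophagy gene (chr17:82634334-82636708), had 24.2 and 25.1 in the knockout lists and 31.4 and 39.7 in the control lists. Both control folds were higher there, yet all 4 percentiles were 98.8 or more. The last lay inside RARG, a retinoic acid receptor (chr12:53221140-53221747), with 26.1 and 20.8 in the knockout lists and 26.8 and 23.8 in the control lists. The next regions of this plain kind lay inside THRAP3, a splicing factor, TXK, a tyrosine kinase, and PFKFB3, a regulator of glycolysis, all with percentiles of 97.2 or more.

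The CANX region, named here after its values were seen because CANX belongs to the endoplasmic reticulum list, was chr5:179697316-179698738. It lay inside CANX and 16282 bp from the nearest gene end, that of CBY3. Its folds were 32.0 and 31.4 in the knockout lists and 18.3 and 24.6 in the control lists, and its percentiles 99.9 and 99.9 against 96.8 and 98.4. Both knockout values were above both control values, within the top of every list.

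The sequence of the windows differed between the classes as well. Whole windows inside the regions without FOS or MYRF numbered 637, from 547 genes, and 443 windows lay inside FOS-overlapped regions. Their median GC content was 58.0% without FOS or MYRF (quartiles 48.7 and 67.7%) and 51.0% with FOS (43.8 and 59.8%), against 64.0% in windows of constant regions within 10 kb of gene ends that also lacked both factors and 58.7% in all 34796 distinct windows. At least 16 CG dinucleotides were held by 46.8% of the windows without FOS or MYRF and by 23% of those with FOS, against 78% of the windows near gene ends and 47.4% of all windows. With both kinds of gene pooled, the share without FOS or MYRF was near that of all windows, but the kinds differed in opposite directions. Among protein-coding windows it was 53.8% without FOS or MYRF, against 60.6% of all such windows. Among long non-coding RNA windows it was 39.8% (127 of 319), against 3215 of all 12861. The FOS windows were below all windows in both kinds, at 32.4% and 16.9%. Strength ran along the number of CG dinucleotides. Windows with 16 or more CG dinucleotides lay in regions with median percentiles of 85.9 and 85.0 in the knockout lists and 84.8 and 87.8 in the control lists. Windows with 0 to 3 lay in regions at 66.2 and 68.1 in the knockout lists and 73.2 and 72.0 in the control lists.

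The AP-1 letters TGANTCA, searched on both strands, were in 5.97% of the windows without FOS or MYRF (38 of 637, interval 4.38 to 8.08) and in 28.4% of those with FOS (126 of 443, 24.4 to 32.8). The share was 2.22% in the gene-end windows without either factor and 7.73% in all windows. The SVIL-AS1 and LOC105374745 windows printed above are examples from the first and second of these classes. The SVIL-AS1 region (chr10:29408940-29409965) had folds of 16 and 15.3 in the knockout lists and 16 and 15.1 in the control lists. Letters of the MYRF motif, CTGGNAC, were in 19.9% of the windows without FOS or MYRF, 17.6% of those with FOS and 18.4% of all windows, with overlapping intervals. The letters searched for CTCF, an insulator protein, were in 3.30%, against 1.81% with FOS and 2.41% of all windows, and the FOXA letters TGTTTAC in 3.92%, against 2.93% and 3.42%. The TEAD letters GGAATG were in 14.8%, against 16% and 14%. The ETS letters CCGGAAG were in 8.79%, against 6.32% and 10.2%, while gene-end windows held them in 21.0%. The HNF1 letters were in 0 of the 637 windows (interval 0 to 0.599%) and in 0.0489% of all windows. No motif searched is contained in another. A match is a description of letters and not a bound site. Windows of the same gene or region can share bases, so the windows behind each interval are not all independent.

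**Figure D4:**
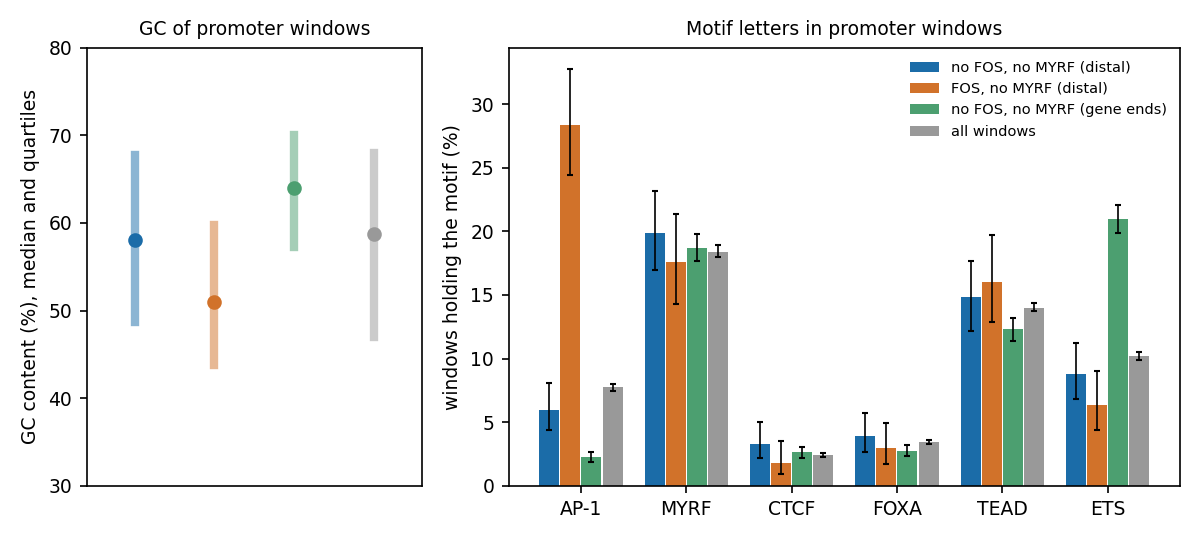
Left, GC content (y axis, %) of 300-base RefSeq promoter windows, with medians as dots and quartiles as bars, in the colours of the legend on the right. Right, share of windows that hold the letters of each motif (y axis, %) with Wilson 95% intervals. AP-1 letters are in 5.97% of windows in distal regions without FOS or MYRF, against 28.4% of windows in FOS-overlapped distal regions.

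Ends of tRNA genes and transcribed pseudogenes also set the regions without FOS or MYRF apart from FOS-overlapped ones. An end of any non-coding gene lay within 1 kb of 13.4% of the MYRF-overlapped regions (12.2 to 14.6). It did so for 12.3% of the regions without FOS or MYRF (11.8 to 12.9) and for 10.2% of the FOS-overlapped ones (9.66 to 10.8). For tRNA genes, transcribed by RNA polymerase III, the counts were 73 regions (0.538%, 0.428 to 0.676) against 11 (0.0971%, 0.0543 to 0.174). For transcribed pseudogenes they were 87 (0.641%, 0.520 to 0.790) against 7 (0.0618%, 0.0299 to 0.128). For snoRNA genes, which guide the modification of ribosomal RNA, the order was the other way, with 13 regions (0.0958%, 0.0560 to 0.164) against 26 (0.230%, 0.157 to 0.336). These intervals overlapped slightly. For miRNA genes the intervals overlapped as well, with 0.398% (0.305 to 0.519) against 0.362% (0.267 to 0.491).

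Of 443 annotated tRNA genes, 32 had an end inside a region without FOS or MYRF. The median joint percentile over these genes, which counts a shared region for each gene, was 70.2. Over the 73 regions with a tRNA end within 1 kb it was 51.9, and over all regions without FOS or MYRF 35.6. The highest of the 32 was TRV-CAC1-1, a valine tRNA gene (chr1:161399700-161399772). Its region had folds of 30.6 and 17.1 in the knockout lists and 21.5 and 27.4 in the control lists. Near-identical tRNA copies share reads, so these values are uncertain where the mapping split them. Of 18303 long non-coding RNA genes, 614 had an end inside such a region, at a median joint percentile of 61.4. The strongest after LINC02901 and LOC100130992 were FAM13B-AS1 and LOC124901077, which share a region with folds of 28.5 and 18.4 in the knockout lists and 21.5 and 26.5 in the control lists. LOC105378179 followed with 33.8 and 19.3 in the knockout lists and 23.1 and 21.1 in the control lists. The end of LOC101928236 and the ribosomal 5S pseudogene RNA5SP146 shared a region 13541 bp from CCNL1 with 27.6 and 17.5 in the knockout lists and 23.4 and 35.4 in the control lists.

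An end of a miRNA hairpin lay inside a region without FOS or MYRF for 32 of 1913 miRNA genes. Of these, 3 with known roles in epithelial or tumour cells are shown with their mature 5p strands, seed bases 2 to 8 in capitals, and were chosen after their values were seen. miR-205 is an epithelial miRNA that targets ZEB factors, miR-145 is reduced in many carcinomas, and miR-424 belongs to the miR-15 family by its seed.
hsa-miR-205-5p: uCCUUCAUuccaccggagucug
hsa-miR-145-5p: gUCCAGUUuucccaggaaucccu
hsa-miR-424-5p: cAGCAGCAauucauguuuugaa
The 3 seeds differ. The MIR424 region (chrX:134546505-134550610) had folds of 11.3 and 13.2 in the knockout lists and 17.6 and 12.8 in the control lists. The MIR205 region (chr1:209432035-209435842) had 10.9 and 8.52 in the knockout lists and 9.16 and 18.9 in the control lists. The MIR145 region (chr5:149429682-149431219) had 6.71 and 6.76 in the knockout lists and 7.24 and 8.58 in the control lists. The groups overlapped for MIR205 and MIR424 in folds, whereas both knockout folds were below both control folds at MIR145.

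The regions were counted by gene. Each was assigned to whichever protein-coding gene ended closest to it, with no limit of distance. This gave 4632 genes a region without FOS or MYRF, 1995 of them a single one and 217 of them 10 or more. The counts expected from gene length and spacing were not computed, so these counts are not read as grouping. TGFB2, a TGF-beta ligand, had the most, with 51 such regions against 8 FOS-overlapped ones, out to 317753 bp. WWTR1, which encodes the Hippo pathway coactivator TAZ, had 26 against 2, all inside the gene. KLF5, an epithelial zinc finger factor, had 26 against 7, and ERRFI1, a feedback inhibitor of EGFR, had 31 against 9. The other genes of the first 10 were MYC (39 and 25), DST (35 and 13), RAD51B (33 and 20), IRS1 (29 and 9), TOMM20 (29 and 7) and SLC39A11 (27 and 8), in the same order of classes. By gene span, DST, a cytoskeletal linker, held 35, RAD51B, a recombination gene, 32, and WWTR1 26. AOPEP followed with 24, SEMA3A, a guidance ligand, with 22, and INPP4B, a lipid phosphatase, the kinase gene MOK and RBPMS, an RNA-binding protein, with 20 each. MOK had the densest cover of these 8, at 22.1 per 100 kb and with 0 FOS-overlapped regions.

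Uninterrupted runs were also counted, without assignment to genes. Along each chromosome the constant distal regions fell into 6345 runs in which every region lacked FOS and MYRF, and 40 of these runs held 10 or more. The median run held 2 regions. The number of runs expected at a share of 48.5% was not computed, so these counts are not read as grouping. The densest long run lay inside WWTR1, with 19 consecutive regions over 87648 bp (chr3:149557205-149644852). Their median joint percentile was 26.3 and their median knockout minus control difference 0.791 percentile points. A run of 19 near SMAD3, SKOR1 and PIAS1 spanned 834823 bp, a run of 14 near TGFB2 123279 bp and a run of 14 near MOK and ANKRD9 173255 bp. The longest, 22 regions over 11661764 bp of chromosome 7, crossed the sparse stretch around the centromere, and a run of 15 on chromosome 12, including the LRRC23 region, spanned 3298558 bp.

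A region without FOS or MYRF was assigned within 100 kb to 4185 of 20037 protein-coding genes, or 20.9%. Against that background, 15 of 23 polarity, junction and adhesion genes had one, and 14 of 22 growth factor receptors and ligands. Gene length moved with these counts, with a median of 181610 bp in the adhesion list and 102914 bp in the growth factor list, against 24115 bp over all protein-coding genes and 4522 bp for ribosomal protein genes. Its part in the counts was not tested. FOS-overlapped regions were assigned to 15 and 13 genes of the same lists, against 19.4% of all protein-coding genes. Of the epithelial and pancreatic factors 9 of 24 had a region without FOS or MYRF and 11 of 24 a FOS-overlapped one. The classical tumour programme had 7 of 14 against 3 of 14, the basal-like programme 8 of 24 against 5 of 24, the mesenchymal list 6 of 14 against 7 of 14, and the AP-1 subunits 5 of 11 against 4 of 11. Ribosomal protein genes had 2 of 19 in both classes. No test was made for any list.

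Among adhesion genes, PTPRJ, a receptor tyrosine phosphatase, had 19 regions without FOS or MYRF within 100 kb, and CDH1, the epithelial cadherin, had 9. The strongest at CDH1 had folds of 7.79 and 8.45 in the knockout lists and 9.62 and 14.8 in the control lists, with both knockout values lower. The 9 regions inside CDH1 had a median knockout minus control difference of 4.83 percentile points, with both knockout percentiles below both control ones at 1 and above at 2. PARD3, a polarity scaffold, had 8, the strongest with 18.9 and 24.0 in the knockout lists and 18.3 and 26.7 in the control lists. PTPRM had 4.

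Among growth factor genes, TGFB2 had 25 within 100 kb, MET 8, EGFR 7 and IGF1R 6. The strongest TGFB2 region had folds of 12.2 and 11.5 in the knockout lists and 16.4 and 17.2 in the control lists. The strongest EGFR region had 10.9 and 13.4 in the knockout lists and 7.07 and 8.96 in the control lists. Both knockout folds were lower at the first and higher at the second. The 15 regions inside TGFB2 itself had a median difference of 2.53 points, so the strongest region, which lay outside the gene, did not stand for them. The run of 14 regions that begins with it had a median of -7.79 points. All 51 regions assigned to TGFB2 had a median of -1.11, with both knockout percentiles lower at 13 and higher at 7. Among epithelial factors, ELF3 had 8 and EHF, both ETS factors of epithelia, had 6, while KLF5 had 5 and GRHL2 4. The strongest EHF region had 10.6 and 8.63 in the knockout lists and 15.8 and 10.5 in the control lists.

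Of the 20 genes for chaperones and stress sensors of the endoplasmic reticulum, 5 were assigned a region without FOS or MYRF within 100 kb. These were 9 regions in all, and 6 of the genes were assigned a FOS-overlapped one, against 20.9% and 19.4% of all protein-coding genes. The CANX region described above is not among the 9, since the end of CBY3 was closer to it. Both knockout percentiles were above both control ones there. At XBP1, a transcription factor of the unfolded protein response, the region 17529 bp away (chr22:28818098-28820296) had folds of 6.77 and 5.14 in the knockout lists and 12.3 and 8.44 in the control lists. At CREB3L2, a membrane-bound transcription factor, 1 of 2 regions (chr7:137980827-137982295) had 8.52 and 9.46 in the knockout lists and 3.63 and 5.39 in the control lists. PDIA4, a disulfide isomerase, had a region at 5.93 and 7.84 in the knockout lists and 3.76 and 4.41 in the control lists. ERN1, which encodes the stress sensor IRE1, had a region at 9.38 and 9.93 in the knockout lists and 8.62 and 9.14 in the control lists. Of the 9 regions, knockout percentiles were both above the control ones at these 3 and both below at XBP1, and the groups overlapped at the other 5, including both at PDIA6. Over all constant regions both knockout percentiles were above in 14.4% and below in 19.2%, and nothing is read from counts this small.

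Remaining lists held few regions. ANXA10, an annexin of the classical programme, had 9 within 100 kb, and its strongest had folds of 5.42 and 11.5 in the knockout lists and 9.56 and 9.28 in the control lists. LYZ had 3, AGR2 2 and CEACAM6 1, the last with 7.25 and 6.39 in the knockout lists and 4.83 and 4.18 in the control lists. In the basal-like list FGFBP1 had 4, DHRS9 2, and AREG and KRT17 1 each. ATF3 and FOS had 3 each and FOSL2 and JUN 2 each. The strongest region near FOS itself had 8.49 and 7.80 in the knockout lists and 7.85 and 13.0 in the control lists. In the mesenchymal list CDH2 had 3, SNAI2 and ZEB1 2 each and SNAI1 1. RPL3 and RPS3 had 3 each, and the strongest RPS3 region had 5.29 and 4.88 in the knockout lists and 8.91 and 10.5 in the control lists.

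Knockout and control were compared by counting regions in which both knockout percentiles lay on one side of both control percentiles. Both knockout values were lower in 2921 regions without FOS or MYRF (21.5%), against 19.2% of all 54063 constant regions and 2267 of the 11324 FOS-overlapped ones. Both were higher in 1741 (12.8%), against 14.4% of all constant regions and 13.2% of the FOS-overlapped ones. These shares are near the background. The median knockout minus control difference was -2.45 percentile points in regions without FOS or MYRF, -1.81 in FOS-overlapped and -1.62 in MYRF-overlapped regions. Without knockout replicate 1 the difference in regions without FOS or MYRF was -0.384, over the 17825 regions that then met the rule. With only peaks of a -log10 q of at least 10 it was -0.855, over 6286 regions. Its size thus varied with these choices, which also changed the set of regions, and what moved it was not tested. With 2 libraries against 2, no exact permutation test can fall under 0.05, and the rule used the contrast.

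The median gap between replicates of a single region was 14.2 percentile points in the knockout clone and 11.5 in the control clone. Across the 13567 regions the Spearman rank correlation was 0.57 between the knockout replicates and 0.67 between the control replicates, and 0.58 to 0.63 between a knockout and a control list. The knockout replicates therefore ranked these regions no more alike than lists of different clones did. In FOS-overlapped regions the 6 coefficients ran from 0.66 to 0.76. The points share genome, antibody and region definition, so these are descriptions. The difference was under 10 points in size in 7005 regions (51.6%). The knockout clone was more than 50 points lower in 28 regions and more than 50 points higher in 19. Counts by size of difference were not made over all constant regions, so nothing about this set is read from them.

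The 8 most negative and 8 most positive differences among regions with no overlap of the groups were chosen by these values and are described only. The most negative lay inside DENND2B, an exchange factor for Rab proteins (chr11:8832380-8833413), with folds of 3.72 and 3.34 in the knockout lists and 11.6 and 9.28 in the control lists. PCDH7, a protocadherin, followed with 3.30 and 2.73 in the knockout lists and 6.43 and 8.33 in the control lists. A region 49500 bp from SMURF2, a ubiquitin ligase of TGF-beta signalling, had 7.07 and 3.37 in the knockout lists and 15.9 and 23.9 in the control lists. The others were near LOC124903470 or inside ADAMTS12, a secreted metalloprotease, TMEM30A, a lipid flippase subunit, TIAM1, a Rac exchange factor, and AGAP3, whose region held an AGAP3 promoter window.

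The most positive lay 38825 bp from GPCPD1, a glycerophosphocholine phosphodiesterase (chr20:5649831-5651093), with folds of 9.59 and 6.95 in the knockout lists and 2.89 and 3.57 in the control lists. A region 14144 bp from PKP1, which encodes the desmosomal plaque protein plakophilin, had 8.86 and 5.50 in the knockout lists and 2.46 and 3.39 in the control lists. LMO7, an adherens junction protein, had a region inside it at 8.27 and 7.25 in the knockout lists and 3.35 and 3.77 in the control lists. A region 24297 bp from DAB2, an endocytic adaptor, had 9.22 and 4.62 in the knockout lists and 2.47 and 3.05 in the control lists. The other 4 were near KIF2B, NPY5R and B4GALT5, a galactosyltransferase, and inside MAN2A1, a Golgi mannosidase. All 16 were present in all 4 lists by the rule, and no control percentile of the 8 negative ones was under 62.1.

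**Figure D5:**
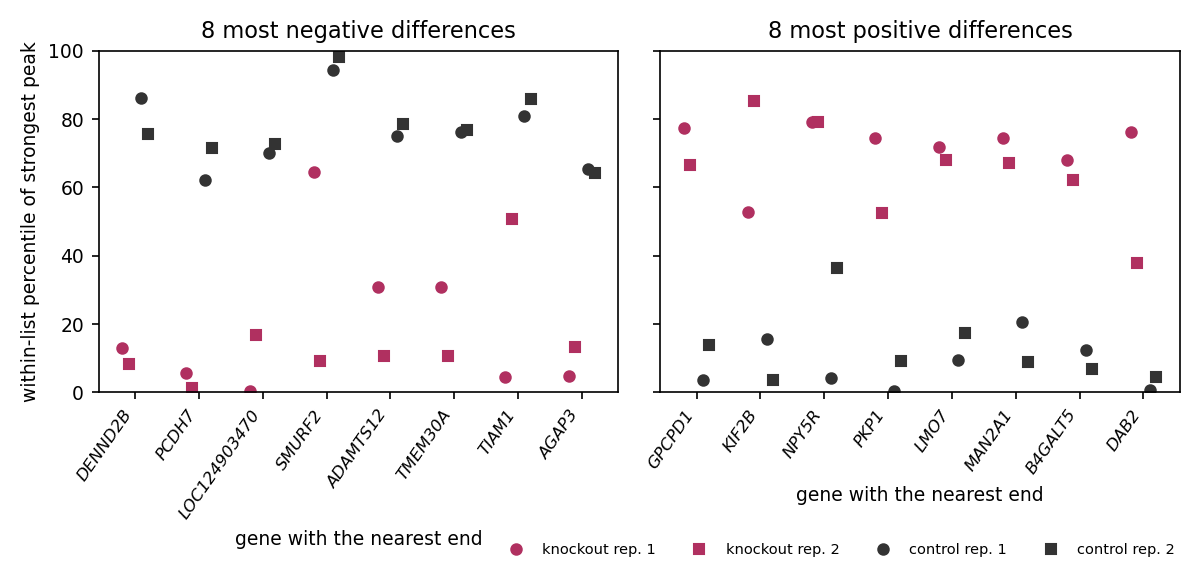
Within-list percentile (y axis, 0 to 100) of the 8 regions with the most negative and the 8 with the most positive knockout minus control difference, named by the closest protein-coding gene end. Knockout replicates are red and left of the control replicates in black; knockout replicates of one region, such as that near SMURF2 at 64.4 and 9.12, can lie far apart.

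The difference varied by chromosome. Its median over regions without FOS or MYRF was -5.56 points on chromosome 11 and -4.96 on chromosome 22, and 0.633 on chromosome 4. Both knockout percentiles were lower in 30.3% of such regions on chromosome 22 and 28.2% on chromosome 11, against 16.9% on chromosome 4. Over all constant regions, which include these, the shares were 23.4% on chromosome 22, 25.2% on chromosome 11 and 17.5% on chromosome 4. FOS-overlapped regions, which lie outside the set, had median differences of -3.19, -4.18 and -0.0309 points on the same chromosomes. Copy number was not measured in these data. The share of constant distal regions that lacked FOS and MYRF was 43.6% on chromosome 8 and 43.7% on chromosome 5, and 56.5% (51.4 to 61.4) on chromosome 19.

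The 5 regions named here lay farthest from any protein-coding gene end. The farthest was 2025049 bp from LOC105372073 (chr18:39799737-39800878), with folds of 9.58 and 7.76 in the knockout lists and 8.36 and 8.95 in the control lists. It was above the median of the set in all 4 lists. A pair lay 1987258 and 1923360 bp from IGFBP7 on chromosome 4, and the others 1811932 bp from TENM3 and 1787974 bp from EFNA5. At the 10 kb limit, the nearest regions kept were at 10003 bp from SDC1 and 10007 bp from ACSM6 and DACH1, and the nearest left out at 9997 bp from NFE2L2 and PLAT and 9994 bp from OSBPL6. At the length limit, the longest kept were 5994 bp inside EZR, 5974 bp inside THSD7B and 5875 bp near LYPLAL1, and the shortest left out 6019 bp near ACTBL2, 6029 bp inside SMAD3 and 6042 bp near CDIN1. The EZR region had percentiles of 76.4 and 57.6 in the knockout lists and 72.0 and 65.7 in the control lists, and the SMAD3 region 95.8 and 97.0 against 93.7 and 98.7.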

How the data were processed

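The data were ChIP-seq peak lists from 10 libraries, 1 list per library and 2 libraries in each of 5 groups; the HPAF2 input was not analysed here. Per the submitters' processing notes, reads were handled with Trimmomatic 0.38, Bowtie2 2.2.6 and SAMtools, and peaks were called with MACS2 2.1.0.20150731 on GRCh38. The control used in peak calling and the read depths are not given in the sources used here. Each deposited list gives, as the authors' values per peak, a fold enrichment over local background (a ratio), a -log10 p, a -log10 q and a score, which is 10 times the -log10 q. The lowest -log10 q in a deposited list was 1.30 to 1.33. Percentiles were computed here from the fold within each list, and the strongest peak stood for a region. Intervals were merged where they shared at least 1 bp, and gene ends, gene spans, promoter windows and miRNA sequences were taken from RefSeq (GRCh38.p14, 20037 protein-coding and 39642 other genes). Promoter windows wholly inside a region were searched for motifs, since no genome sequence was used here. Tools were Python 3.11.15, numpy 2.4.6, pandas 2.3.3, scipy 1.17.1 and bedtools 2.31.1. The interval code was tested on simulated data, and the 13567 regions were checked with bedtools, which gave the same set.

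The rule used all 10 lists, and the members and gene lists were chosen with earlier results of these data known, so no p-value is given. Shares carry Wilson 95% intervals, which cover counting error over regions or windows and not the spread between libraries. Genes and regions were named by rank: the 12 highest joint percentiles, the 8 most negative and 8 most positive differences, the 10 genes and 8 gene spans with most regions, up to 4 genes per list, the 5 farthest regions, the 3 on either side of each limit, 8 non-coding genes and 6 runs. CANX, the miRNAs, XBP1, the windows printed in full and the regions without windows after RARG were added after their values were seen. A gene list and a region among the 12 are not reported here.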

Additional observations from a re-analysis of the deposited data

How the results depend on the processing

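No paired analysis was possible because the comparison comes from no test and the labels do not say that libraries of the same number share a culture or day. Of 212 values recomputed under 21 alternatives, 148 stayed within 1.5 times (counts), the Wilson interval (shares), the interval of the median (lengths and distances) or 1 SD between lists (percentiles), 64 moved and 0 changed sign. The planned windows of 500 and 2000 bp around region centres were not run, since no genome sequence was used here; counting promoter windows that overlap a region by at least 1 bp, an alternative chosen after seeing the data, changed little.

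Keeping only peaks with a -log10 q of at least 10 left 6286 regions without FOS or MYRF, 52.9% of the constant distal ones, with a median length of 1877 bp, 42624 bp from gene ends and 18828 bp from FOS, a median percentile of 79.6, a gap to FOS-overlapped regions of -4.48 points, a knockout minus control median of -0.855, 1269 regions lower and 864 higher in the knockout clone, and 17.0% with a non-coding end. With an overlap of at least 100 bp the share was 50.7%, the length 1037 bp and the FOS distance 5457 bp. Exclusion only by peaks found in both replicates gave 56.4%, 1122 bp and 4398 bp. Beyond 5 kb the share was 49.3%, the share inside genes 51.9%, the length 1058 bp and the gene distance 35165 bp; beyond 20 kb these were 47.5%, 49.3% inside genes and 61335 bp. Under 3000 bp the share was 53.3%, the length 1033 bp and the gap to FOS-overlapped regions -11, and with no length limit the share was 47.2%. The cause was not tested for any of these except that each rule keeps other regions by construction.

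Leaving out 1 library at a time gave 13598 to 17825 regions, a share of 48.6% to 55.1%, 50.5% to 50.9% inside genes, lengths of 903 to 1101 bp, gene distances of 44760 to 47255 bp, FOS distances of 5512 to 8591 bp, percentiles of 50.2 to 55, a gap to FOS-overlapped regions of -17.8 to -14.5 and a non-coding share of 11% to 12.4%. The median knockout minus control difference ran from -3.48 to -0.384. Counts of regions without overlap of the groups were 2929 to 7071 lower and 1743 to 5635 higher, as 1 library against 2 overlaps less often by construction.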

Other observations

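Over all lists, 86 listed genes had a region without FOS or MYRF assigned within 100 kb, 71 within 50 kb and 91 within 200 kb. Read depth is unknown for all lists, and signal under the threshold of the FOS and MYRF lists was not measured.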
